A study of Mus musculus with 74 samples.

Results

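The translation initiation and elongation factors were taken as the genes whose symbol starts with Eif or Eef followed by a digit, leaving out the eIF2 kinases (*Eif2ak*). Of 19031 genes with a single symbol on the array, 59 met this rule, and each was represented by its probe with the highest mean log2 level over all arrays. A total of 55 of the 59 had a probe above the level filter and were tested together with all 13817 genes above it. *Eef1akmt2*, *Eif4e1b*, *Eif4ebp3*, and *Eif5a2* had no probe above the filter and were not tested. *Eif1*, *Eif2s1*, *Eif3g*, and *Eif4g1* had no probe under their symbol in the annotation used and are not covered here.

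Gene expression was measured on Illumina bead arrays during in vitro differentiation of naive CD4+ T cells, which came from pooled spleen and lymph nodes of Balb/c mice aged 5 to 8 weeks. The cultures were Th1 (IL-12 with anti-IL-4), Th2 (IL-4 with anti-IL-12 and anti-IFN-γ), Th1/2 hybrid cells (IL-12 and IL-4 together), and Th0 (antibodies against IFN-γ, IL-4, and IL-12), each sampled at 3, 6, 12, 24, 35, 48, 73, 96, and 120 h. Naive cells at 0 h, sorted magnetically as CD62L-high, were the reference for time. All 4 cultures received anti-CD3 and anti-CD28, and 2 independent experiments gave 2 arrays per condition and 74 arrays in all. The experiments are numbered here by the labels' replicate numbers. The p-values measured the spread between the 2 arrays of a condition, pooled over conditions. All arrays were treated as independent, although cultures of the same number and time deviated together (median correlation 0.54 over 54 pairs). In bulk cultures, fewer cells of a type and less RNA per cell cannot be told apart. Normalized intensities ranged up to 69892, log2 was taken, and levels were compared only within a gene, since probes differ in brightness for reasons other than RNA amount.

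Translation initiation brings the small ribosomal subunit, the initiator tRNA, and an mRNA together. eIF2 carries the initiator tRNA and is recharged with GTP by eIF2B, eIF3 organizes the small subunit, and the eIF4 factors bind the mRNA cap and unwind the 5′ end. The eIF4E-binding proteins sequester the cap-binding factor unless the kinase mTOR phosphorylates them. Elongation then uses eEF1 to deliver aminoacyl-tRNAs and eEF2 to move the ribosome along. T cells that leave the resting state grow before they divide, and increased protein synthesis is part of that growth.

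The sorted cells carried T-cell transcripts, and 5 of the 6 listed T-cell markers were tested (*Cd3e*, *Cd3d*, *Cd3g*, *Cd4*, and *Cd247*). Their mean log2 level was 11.54 to 12.98 on the later arrays and 13.25 in naive cells, and 4 of the 5 were lower at 24–35 h than at 0 h. The mean level of 3 tested myeloid markers was 6.41 to 8.00 on the later arrays and 8.48 in naive cells, and all 3 of them (*Lyz2*, *Csf1r*, and *Cd14*) were lower at 24–35 h. The mean of the 2 tested B-cell markers was 6.86 to 8.83 later and 8.36 in naive cells. The *Cd8b1* probe had a level of 11.17 to 12.88 on the later arrays and 12.02 in naive cells, while *Cd8a* was not above the filter. The part of these other markers in the changes of the translation factors was not tested.

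Of the 74 arrays, 2 stood apart for the translation factors, and results that rest on them are given with and without them. In Th1/2 cells at 12 h in experiment 1, 5 members departed at least 2-fold from the mean of the other cultures at that time. In Th0 cells at 96 h in experiment 2, 6 members did so, while 0 to 2 members departed on each of the other 70 later arrays. *Eef2*, *Eif3c*, *Eif4b*, and *Eif3b* were low on both arrays. On the log2 scale, the departure of *Eef2* was -3.51 on the Th1/2 array and -4.80 on the Th0 array. In the same order of arrays it was -3.01 and -3.63 for *Eif3c*, -1.56 and -2.15 for *Eif4b*, and -1.48 and -1.61 for *Eif3b*. Over all genes, 2.53% departed 2-fold on the Th1/2 array and 5.61% on the Th0 array.

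**Figure D1:**
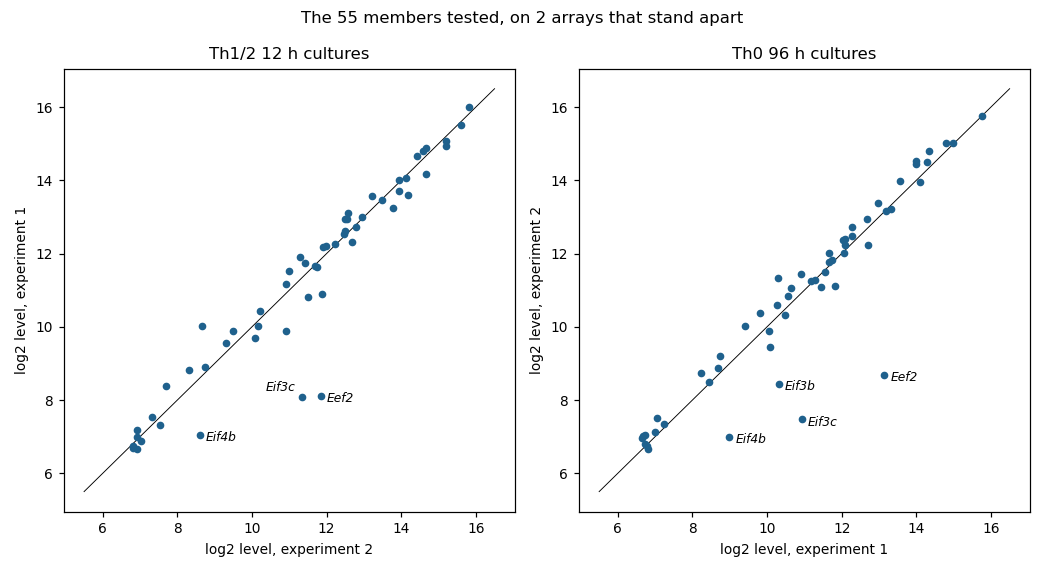
Log2 level of each of the 55 members on the array that stood apart (vertical axis) against the other experiment of the same condition (horizontal axis), for Th1/2 cells at 12 h (left) and Th0 cells at 96 h (right). Points are genes, the line marks equal levels, and *Eef2*, *Eif3c*, and *Eif4b* lie far below it in both panels. *Eif3b* also lies below it in both panels, nearer to it at 12 h (9.89 against 10.91) than at 96 h (8.44 against 10.32).

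After activation, most translation factor transcripts that changed were higher, with the highest count at 24 h, and most of the later changes ran the other way. Against 0 h, as the mean of the 4 cultures, 22, 32, 31, 33, 31, 30, 23, 11, and 10 of the 55 members were higher at 3, 6, 12, 24, 35, 48, 73, 96, and 120 h (limma, adjusted p under 0.05). Of all genes tested, 15.7%, 21.7%, 24.0%, 26.4%, 26.0%, 25.1%, 22.5%, 20.2%, and 19.8% were higher at these times. The numbers of members that were lower were 4, 3, 3, 5, 5, 5, 4, 6, and 8 at the same times, against 21.5%, 23.2%, 22.8%, 23.9%, 24.5%, 23.7%, 22.5%, 22.4%, and 22.7% of all genes. On the log2 scale, the median of the members was 0.23 (3 h), 0.65 (24 h), 0.43 (48 h), and 0.11 (120 h), while the median of all genes was between -0.00179 and 0.04 at every time point. All 9 of these comparisons share the 2 naive arrays.

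**Figure D2:**
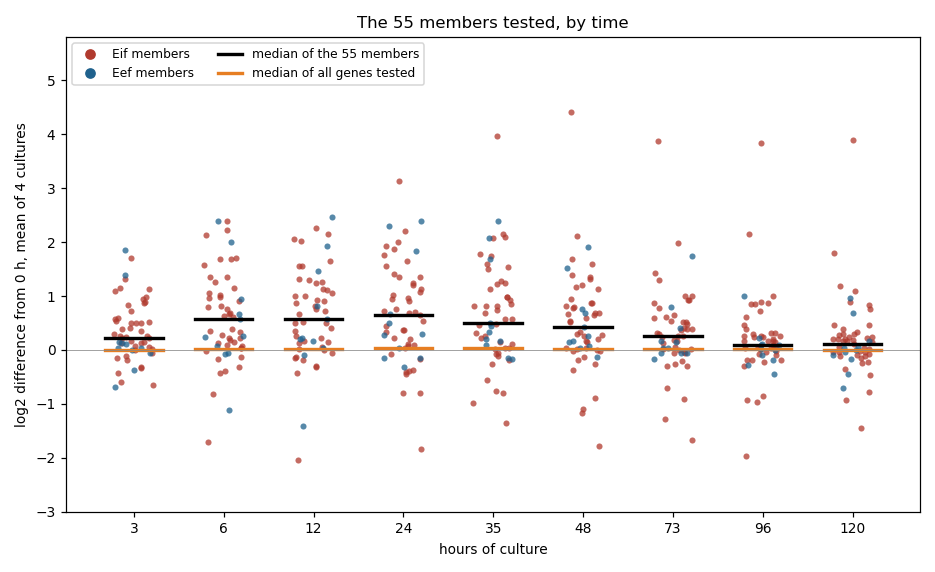
Log2 difference from 0 h (vertical axis, mean of 4 cultures) of each of the 55 members at 9 times (horizontal axis, hours of culture), with Eif genes in red and Eef genes in blue. Black bars are the medians of the members, which reach 0.65 at 24 h and are 0.11 at 120 h, and orange bars are the medians of all genes tested.

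At 24–35 h, 32 members were higher than at 0 h and 5 were lower, against 27.0% of all genes higher and 24.8% lower. The count of 5 was 2 without naive replicate 2 and 9 with the arrays centred on their medians. At least 2-fold differences were reached by 19 members in the upward direction (10.5% of all genes) and by *Eif4e3* alone in the downward direction (8.99%). The median member differed by 0.56 (0.51 in experiment 1 and 0.64 in experiment 2), and the median gene by 0.04. From 24–35 h to 73–120 h, 39 members fell and 3 rose (*Eef2*, *Eif3f*, and *Eif4e3*), against 32.5% of all genes lower and 28.8% higher. Of these, 11 fell at least 2-fold (5.29% of all genes) and *Eif4e3* alone rose at least 2-fold (5.86%). The median of this later change was -0.30 over members and -0.02 over all genes. Both comparisons use the 24–35 h arrays, so their values are given side by side and not counted together. At 73–120 h, 16 members (29.1%) were higher than at 0 h and 6 (10.9%) were lower, against 21.8% and 23.4% of all genes.

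A gene was called kinetic in a culture when it changed over time (limma's F-test) and differed at least 2-fold from 0 h in the same direction at 2 consecutive time points. By this rule, 27 of 55 members (49.1%) were kinetic in at least 1 culture, against 33.4% of all genes. The counts were 22 in Th1, 24 in Th2, 26 in Th1/2, and 24 in Th0 cells, where 27.1%, 28.3%, 28.9%, and 26.4% of all genes were kinetic in the same order. A total of 21 members (38.2%) were kinetic in all 4 cultures, against 22.5% of all genes. Among the 32 members higher at 24–35 h, the highest mean over cultures fell at 6 h for 9, at 12 h for 8, at 24 h for 6, at 35 h for 5, and at 48 h for 4.

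**Figure D3:**
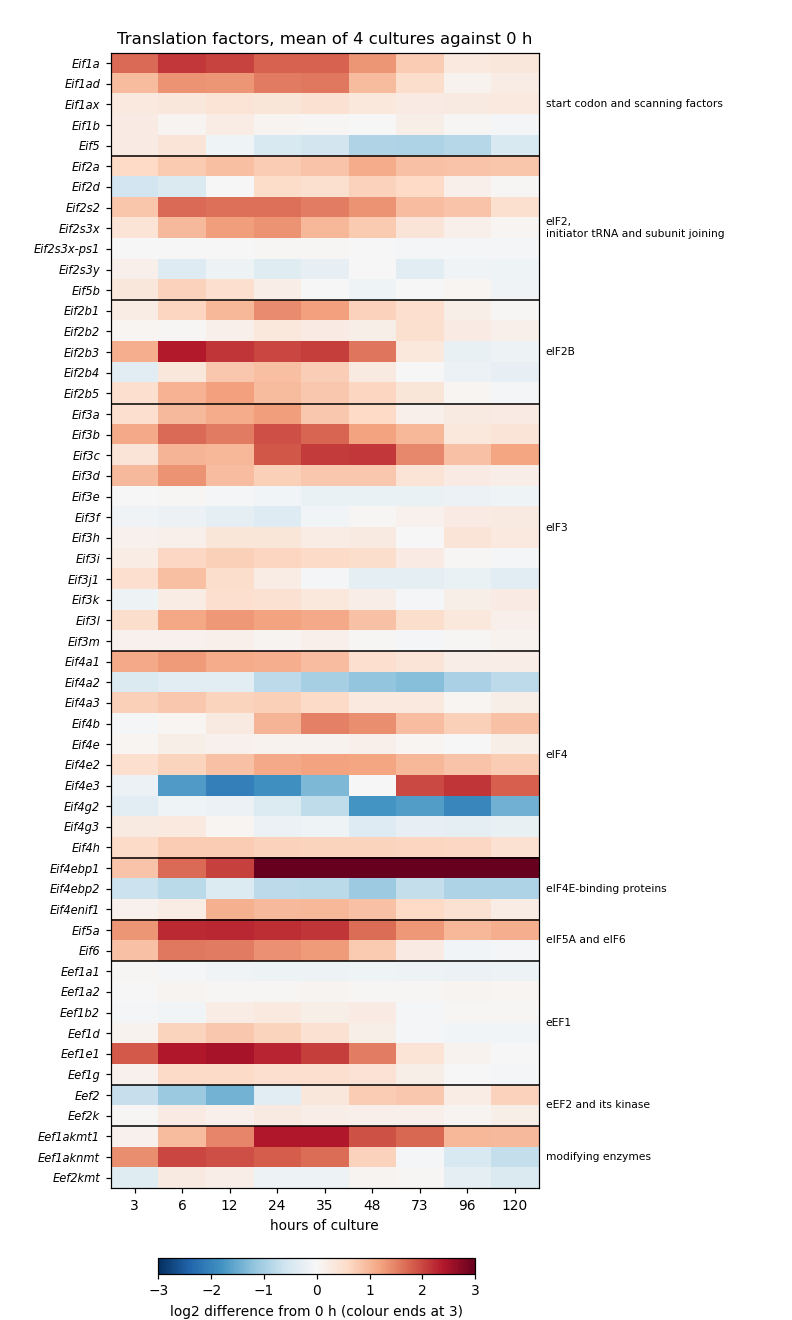
Log2 difference from 0 h (colour, mean of 4 cultures, red higher and blue lower) of the 55 members tested, in rows ordered by role, at 9 times in columns. Most red rows pale after 48 h, *Eif4ebp1* stays dark red up to 120 h, and *Eif4e3* is blue at 6 to 35 h and red at 73 to 120 h.

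Of the start codon and scanning factors, 3 of 5 were higher at 24–35 h and 1 was lower. *Eif1a*, which encodes a form of eIF1A, the factor that keeps the scanning subunit open, had log2 levels between 12.06 and 12.45 (median 12.25) on the 16 arrays at 24–35 h, against 10.21 and 10.76 in naive cells. The ranges did not overlap, and the difference was 1.77 ± 0.16 (SE; limma, adjusted p = 6.27e-13). It was already 1.70 at 3 h and reached 2.13 at 6 h, and by 120 h it was 0.33. *Eif1ad*, an eIF1A-like gene whose human counterpart acts in ribosome maturation, differed by 1.58 ± 0.10 at 24–35 h and later fell by 1.30. Its levels of 11.66 to 12.06 (median 11.88) at 24–35 h lay above the 10.31 and 10.32 of naive cells. *Eif1ax* had a dim probe near the filter and differed by 0.41 ± 0.12 (0.29 and not called without naive replicate 1), and *Eif1b* did not pass (0.06 ± 0.11). *Eif5*, whose product makes eIF2 hydrolyse its GTP at the start codon, was lower by 0.50 at 24–35 h on its brightest probe, but another of its probes was higher by 0.60, so its direction depended on the probe, and without naive replicate 2 the call was lost.

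Of the factors that bring the initiator tRNA and join the subunits, 4 of 7 were higher at 24–35 h and none was lower, with 3 not passing. The 7 include *Eif2s3x-ps1*, by its symbol a pseudogene, on a dim probe near the filter (6.62 to 6.98 at 24–35 h). It did not pass at 24–35 h, and its later change, called lower, was -0.08. *Eif2s2*, the β subunit of eIF2, had levels of 11.26 to 11.71 (median 11.53) at 24–35 h, against 9.78 and 10.05 in naive cells, a difference of 1.59 ± 0.12 (limma, adjusted p = 1.14e-14). Its levels at 73–120 h were 10.14 to 11.22 (median 10.66), below all those at 24–35 h but above both naive arrays. *Eif2s3x*, the X-linked γ subunit, differed by 1.17 ± 0.13 and returned to 0.05 at 120 h. Its Y-linked paralogue *Eif2s3y* did not pass (-0.31 ± 0.23), and the log2 ratio of *Eif2s3x* to *Eif2s3y*, set to 0 in naive cells, had a median of 1.49 on the 16 arrays at 24–35 h, above both naive arrays on all 16. By 73–120 h this ratio had a median of 0.30 and was above both naive arrays on 8 of 24. Its naive reference was unsteady, since the naive arrays differed by 0.85 for *Eif2s3y* and -0.24 for *Eif2s3x* (experiment 2 minus experiment 1).

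*Eif2a*, which can bring initiator tRNA to the ribosome independently of eIF2, and *Eif2s3y* were the 2 of the 7 for which no later decline was called. *Eif2a* differed by 0.81 ± 0.08 at 24–35 h and was 0.83 above 0 h at 120 h (late change 0.04, limma adjusted p = 0.326). *Eif2d*, which has a comparable role, was first lower by 0.59 at 3 h and then higher by 0.51 at 24–35 h. *Eif5b*, the GTPase that joins the large subunit, was higher at 3, 6, and 12 h (by 0.35, 0.68, and 0.50) and did not differ from 0 h by the test at any later time (0.11 ± 0.11 at 24–35 h, limma, adjusted p = 0.443).

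Of the 5 subunits of eIF2B, the exchange factor for eIF2, 4 were higher at 24–35 h and 4 were lower at 73–120 h than at 24–35 h. The median over the 5 was 0.88 at 24–35 h against 0 h and -0.96 for the later change. *Eif2b3* (γ subunit) had levels of 11.25 to 11.72 (median 11.55) at 24–35 h, against 9.45 and 9.52 in naive cells, and rose to 2.39 above 0 h at 6 h. At 73–120 h its levels were 8.57 to 10.24 (median 9.42), a fall of 2.06 from 24–35 h with no overlap (SE 0.07; limma, adjusted p = 3.02e-27). *Eif2b1* (α) differed by 1.32 ± 0.14, *Eif2b5* (ε) by 0.88 ± 0.09, and *Eif2b4* (δ) by 0.82 ± 0.11 at 24–35 h, and each was between -0.25 and 0.03 at 120 h. *Eif2b2* (β) did not pass in either comparison (0.29 ± 0.25 at 24–35 h).

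Of the 12 eIF3 subunits tested, 6 were higher at 24–35 h, none was lower, and 6 did not pass. *Eif3a*, the largest subunit, differed by 1.03 ± 0.10, *Eif3l* by 1.17 ± 0.11, *Eif3d* by 0.76 ± 0.12, and *Eif3i* by 0.62 ± 0.09. These 4 were each lower again at 73–120 h, by 0.48 to 0.83. *Eif3c* had levels of 10.85 to 12.15 (median 11.81) at 24–35 h, against 10.07 and 9.40 in naive cells of experiments 1 and 2. The difference was 1.98 ± 0.47 (limma, adjusted p = 0.000409). Neither of the 2 arrays that stood apart is in these windows, so leaving them out changed only the SE (0.27). The naive arrays of *Eif3c* differed by -0.67 (experiment 2 minus experiment 1), and it was lower in experiment 2 in 28 of the 36 later conditions. At 12 h *Eif3c* was 1.00 above 0 h with all arrays (adjusted p = 0.100) and 1.41 without the 2 arrays (adjusted p = 6.72e-05). *Eif3b* differed by 1.84 ± 0.44, but its naive arrays were 1.00 apart, and without the naive array of experiment 2 the difference was 1.34 and did not pass. *Eif3b* was also lower in experiment 2 in 30 of the 36 later conditions. Within experiments 1 and 2, the difference was 1.45 to 1.70 and 1.99 to 2.18 over the 4 cultures.

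*Eif3f* was the one subunit that rose late. Its levels were 14.13 to 14.94 (median 14.75) at 24–35 h, against 14.90 and 14.93 in naive cells, and the difference did not pass (-0.23 ± 0.11). At 73–120 h they were 14.83 to 15.57 (median 15.12), with overlap, a rise of 0.44 ± 0.05 over 24–35 h (limma, adjusted p = 5.66e-11). *Eif3j1*, a loosely attached subunit, was higher at 6 h by 0.90 and lower at 120 h by 0.35. *Eif3e* and *Eif3m* had dim probes near the filter, and *Eif3h* and *Eif3k* did not pass at 24–35 h.

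In the eIF4 group, paralogues moved in opposite directions. *Eif4a1*, the main RNA helicase of the cap complex, had levels of 14.71 to 15.29 (median 15.00) at 24–35 h, against 13.81 and 14.16 in naive cells, a difference of 1.01 ± 0.11 (limma, adjusted p = 2.98e-10). *Eif4a2*, which encodes a second form of the helicase, had levels of 13.86 to 14.68 (median 14.13), against 14.87 and 15.28 in naive cells, and fell by 0.89 (SE 0.14; adjusted p = 4.41e-07). Neither pair of ranges overlapped. The log2 ratio of *Eif4a1* to *Eif4a2*, set to 0 in naive cells, had a median of 1.91 at 24–35 h and 1.22 at 73–120 h, and it was above both naive arrays on all 16 and all 24 arrays of these windows. *Eif4a2* was lowest at 73 h (-1.28) and was -0.78 at 120 h. *Eif4a3*, a core protein of the exon junction complex, differed by 0.65 ± 0.11 at 24–35 h.

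*Eif4e3*, which encodes a cap-binding protein related to eIF4E, was called lower in the middle of the time course and higher at its end. Its levels at 24–35 h were 8.27 to 9.96 (median 9.28), all below the 10.69 and 10.89 of naive cells (difference -1.59 ± 0.17; limma, adjusted p = 4.09e-11). At 73–120 h they were 12.10 to 13.67 (median 12.76), all above naive cells, an increase of 3.57 ± 0.07 over 24–35 h (11.9-fold; adjusted p = 3.27e-35). A second *Eif4e3* probe changed by -1.33 and 3.30 in the same comparisons. *Eif4e2*, whose product 4EHP binds the cap without starting translation, differed by 1.18 ± 0.10 at 24–35 h and was still 0.76 above 0 h at 120 h. *Eif4e* itself was measured by a dim probe at 6.81 to 7.19 at 24–35 h, against 6.84 and 6.95 in naive cells, and no change was called.

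Among the partners of the helicase, *Eif4h* was higher at every time, with 0.57 at 3 h and 0.46 at 120 h. *Eif4b* differed by 1.26 ± 0.34 at 24–35 h, with overlapping ranges. Its naive arrays had levels of 8.69 and 7.59 in experiments 1 and 2, and without the lower one the difference was 0.71 and was not called. *Eif4b* was also lower in experiment 2 in 34 of the 36 later conditions. Leaving out that naive array thus sets experiment 2 cultures against naive cells of experiment 1. Within experiments 1 and 2, the difference was 0.77 to 1.21 and 1.28 to 1.82 over the 4 cultures. The scaffold *Eif4g3* was lower by 0.26 at 73–120 h than at 0 h. *Eif4g2*, an eIF4G-like protein that does not bind the cap factor, differed by -1.69 at 73–120 h relative to 0 h on its brightest probe, but by -0.44 and -0.47 on its other probes. At 24–35 h the brightest probe was lower by 0.58 while the others were higher by 0.95 and 0.72, and from 24–35 h to 73–120 h the 3 probes changed by -1.11, -1.39, and -1.19.

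The eIF4E-binding proteins also moved in opposite directions. *Eif4ebp1* had the largest difference of the 55 members between 24–35 h and 0 h. Its levels were 11.53 to 13.57 (median 12.42) on the 16 arrays at 24–35 h, against 8.95 and 9.04 in naive cells, a difference of 3.55 ± 0.35 (11.7-fold; limma, adjusted p = 1.40e-11). The mean difference from 0 h was 0.86 at 3 h (not called) and 3.14 at 24 h, and it was highest at 48 h (4.41), with 3.89 at 120 h. At 3 h the experiments differed, since all 4 cultures of experiment 1 were between 10.50 and 10.72 and those of experiment 2 between 8.97 and 9.28. *Eif4ebp2* went the other way, with a fall of 0.80 (SE 0.31; adjusted p = 0.0273) and levels of 9.25 to 11.77 at 24–35 h, overlapping 11.37 and 11.39 in naive cells. This call was lost without either naive array and without experiment 1 of Th1, Th2, or Th1/2 cells (adjusted p between 0.0581 and 0.143). *Eif4enif1*, the transporter that binds eIF4E and brings it to the nucleus, differed by 0.98 ± 0.11 at 24–35 h.

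**Figure D4:**
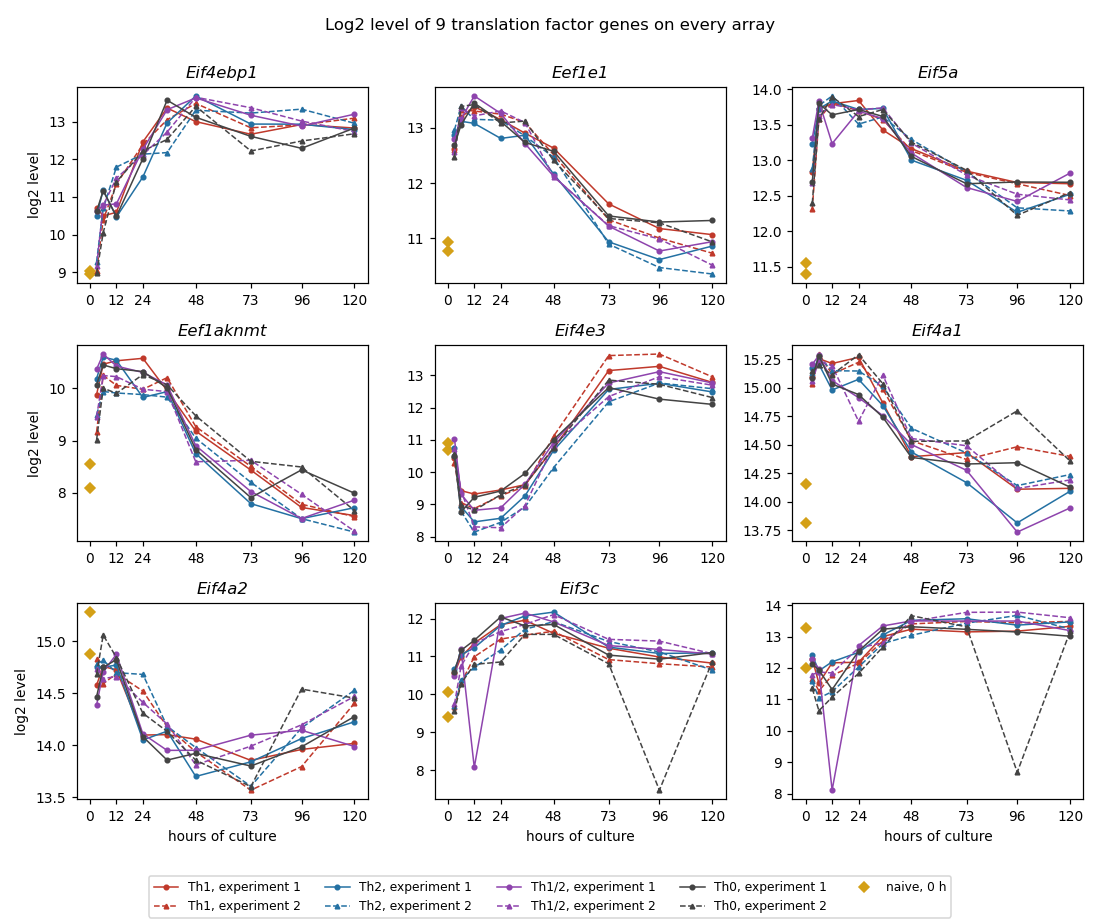
Log2 level (vertical axis) of 9 genes on each of the 74 arrays against hours of culture (horizontal axis). Colours mark the cultures, circles with solid lines experiment 1, triangles with dashed lines experiment 2, and diamonds the naive cells; *Eif4e3* runs through its lowest levels at 12 to 24 h and lies above the naive level from 73 h, and *Eif3c* and *Eef2* drop on the 2 arrays that stood apart.

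*Eif5a*, whose hypusine-bearing product helps ribosomes past difficult peptide bonds, had levels of 13.43 to 13.84 (median 13.70) at 24–35 h, against 11.40 and 11.55 in naive cells. The difference was 2.18 ± 0.13 (4.54-fold; limma, adjusted p = 1.83e-18), and 3 probes of the gene gave 2.18, 2.24, and 2.25. Its levels of 12.23 to 12.86 (median 12.67) at 73–120 h lay below all those at 24–35 h and above both naive arrays. *Dhps* and *Dohh*, the enzymes that build hypusine and no members, differed by 0.50 ± 0.12 and -0.63 ± 0.08 at 24–35 h. *Eif6*, which keeps the large subunit from joining too early, had a difference of 1.32 ± 0.12 at 24–35 h, against -0.02 at 120 h.

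Of the 6 genes grouped as eEF1 by their names, 3 were higher at 24–35 h (*Eef1d*, *Eef1g*, and *Eef1e1*) and none was lower. *Eef1a1*, which delivers aminoacyl-tRNA to the ribosome, had levels of 15.57 to 15.99, against 15.90 and 15.96 in naive cells. These are close to the highest value on any array (16.09), where a bead array loses range, and the difference of -0.15 ± 0.07 did not pass (limma, adjusted p = 0.0781). The exchange factor subunits *Eef1d* and *Eef1g* differed by 0.56 ± 0.10 and 0.50 ± 0.11 at 24–35 h and fell by 0.64 and 0.45 later. *Eef1e1*, which encodes a component of the aminoacyl-tRNA synthetase complex (AIMP3), had no overlap between the windows. Its levels were 12.71 to 13.30 (median 13.09) at 24–35 h, against 10.76 and 10.93 in naive cells (difference 2.18 ± 0.12; adjusted p = 2.90e-19). The difference was 1.85 at 3 h and peaked at 12 h (2.47), against -0.01 at 120 h.

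*Eef2*, the translocase, followed a course of its own, and its naive arrays were 1.27 apart (13.26 in experiment 1 and 11.99 in experiment 2). The mean difference from 0 h was -0.70 at 3 h and -1.11 at 6 h, neither of which passed, and -1.41 at 12 h, which did (limma, adjusted p = 0.0407). Without the 2 arrays it was -0.95 at 12 h (adjusted p = 0.00542). At 73–120 h it had levels of 8.68 to 13.78 (median 13.39), against 11.82 to 13.34 (median 12.69) at 24–35 h, a rise of 0.55 ± 0.24 (adjusted p = 0.0405). Without the 2 arrays the rise was 0.74 ± 0.12 (adjusted p = 4.68e-07). With the 2 arrays kept, the rise missed the threshold on leaving out either replicate of Th1 or Th2 cells, replicate 2 of Th1/2 cells, or replicate 1 of Th0 cells, and with median centring, no filter, the mean of probes, or trend and robust moderation, with adjusted p up to 0.146. *Eef2k*, the kinase that inhibits eEF2, had a difference of 0.24 ± 0.09 at 24–35 h on a dim probe. This call was lost without either naive array (limma, adjusted p = 0.102 and 0.177), without Th0 replicate 1, with median centring, with the mean of its probes, and with the replicate number within a time point as a random block (the random replicate block).

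Enzymes that methylate the elongation factors were among the largest changes. *Eef1akmt1*, a lysine methyltransferase of eEF1A, had levels of 10.16 to 11.23 (median 10.70) at 24–35 h, against 8.14 and 8.39 in naive cells (difference 2.39 ± 0.22; limma, adjusted p = 1.44e-12). *Eef1aknmt*, which methylates both the N-terminus and a lysine of eEF1A, had levels between 9.83 and 10.58 at 24–35 h, against 8.08 and 8.55 in naive cells. It was 2.01 above 0 h at 6 h and 0.71 below it at 120 h, and it fell by 2.16 from 24–35 h to 73–120 h with no overlap (SE 0.10; adjusted p = 2.07e-22). *Eef2kmt*, which acts on eEF2, did not pass at 24–35 h (-0.15 ± 0.11).

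Promoters were read for the E-box, a motif bound by factors such as Myc, and for the 5′ terminal oligopyrimidine tract, through which mTOR controls translation of mRNAs. Promoters of 300 bases (250 before and 50 after the annotated start, RefSeq, GRCm38.p6) were matched by symbol for 44 of the 59 members, and all letters were read as a description of these windows only. The E-box CACGTG, which reads the same on both strands, occurred in 12 of the 44 (27.3%), against 8.09% of 27025 genes and 7.15% of 32851 promoters. The background here and for the other motifs was not limited to the 13817 genes above the level filter. The 44 members had 58 promoters between them. Of the 24 matched members that were higher at 24–35 h, 6 had it, as did 5 of the 15 that did not pass, 0 of the 3 that were lower, and 1 of the 2 not tested. TGATGNAAN, the element bound by ATF4 and C/EBP factors, read on both strands, occurred in 2 of 44 members and 4.5% of genes, with no overlap with an E-box. The windows below show the E-box (capitals) of members with contrasting courses, in the direction of transcription, in *Eif5a* (chr11:69921443-69921472, minus strand), *Eif4a1* (chr11:69672595-69672624, minus strand), *Eef1aknmt* (chr1:162548475-162548504, minus strand), *Eef2* (chr10:81176576-81176605, plus strand), and *Eif3f* (chr7:108934335-108934364, plus strand).
Eif5a: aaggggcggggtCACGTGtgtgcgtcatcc
Eif4a1: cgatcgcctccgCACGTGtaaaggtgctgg
Eef1aknmt: gtgtggctgctgCACGTGgggcgcggaccg
Eef2: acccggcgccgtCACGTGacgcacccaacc
Eif3f: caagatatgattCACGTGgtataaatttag

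All 5 motifs lie upstream of the annotated start, at -43 in *Eef2*, -68 in *Eif3f*, -147 in *Eef1aknmt*, and -189 in *Eif4a1*, and *Eif5a* has several annotated starts. *Eef2* and *Eif3f* were 2 of the 3 members that rose late, and *Eif5a*, *Eif4a1*, and *Eef1aknmt* were higher at 24–35 h and lower later, so the motif was found on both sides. A C followed by at least 5 pyrimidines and starting within 5 bases of the annotated start was present in 7 of the 44 members (15.9%), against 11.9% of genes and 10.2% of promoters. It is shown in capitals for *Eef1a1* (chr9:78481710-78481739, minus strand), *Eif3f* (chr7:108934401-108934430, plus strand), *Eif3l* (chr15:79075208-79075237, plus strand), and *Eif2s3x* (chrX:94212633-94212662, minus strand).
Eef1a1: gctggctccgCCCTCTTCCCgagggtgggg
Eif3f: ctgttctaggCTCTCTCTCTTTCTCggcaa
Eif3l: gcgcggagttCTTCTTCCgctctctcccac
Eif2s3x: cgagcattttCCTTTTCTCTCCgagcaaga

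Of these 4, *Eif3l* and *Eif2s3x* were higher at 24–35 h (1.17 each), and *Eef1a1* and *Eif3f* did not pass.

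Fewer members differed between cultures early than late, and the shares of all genes that differed were also smaller early. At 24–35 h, 2 members differed between Th2 and Th0 cells, 0 between Th1 and Th0, 2 between Th1/2 and Th0, and 1 between Th1 and Th2. Of all genes, 2.09% were higher and 1.66% lower in Th2 than in Th0 cells in that window, 0.0507% and 0.0145% in Th1 than in Th0, 1.94% and 2.27% in Th1/2 than in Th0, and 1.75% and 1.97% in Th1 than in Th2. At 3–12 h the counts were 0, 0, 1, and 0, with 0.811% and 0.890%, 0.109% and 0.0145%, 1.30% and 1.51%, and 0.536% and 0.948% of all genes higher and lower in the same 4 comparisons. For the counts of 0, 2 members at 24–35 h between Th1 and Th0 reached an unadjusted p under 0.05 in limma, as did 2, 1, and 3 members at 3–12 h for Th2 against Th0, Th1 against Th0, and Th1 against Th2, and limma with a mean-variance trend also called none of these. The random replicate block called 1 member between Th1 and Th2 cells at 3–12 h and none in the other 3 of these. The 3 comparisons with Th0 share its arrays, and the comparison of Th1 with Th2 shares arrays with both.

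In Th2 compared to Th0 cells, 1 member was higher and 9 were lower at 73–120 h, against 11.0% of all genes higher and 13.9% lower. *Eef1akmt1* had levels from 8.52 upward (median 9.01) in Th2 cells and 9.55 to 10.70 (median 9.95) in Th0 cells, with overlap, and a difference of -0.90 ± 0.17 (limma, adjusted p = 5.30e-05). *Eef1e1* had levels of 10.36 to 10.94 (median 10.74) in Th2 cells and 10.94 to 11.40 (median 11.31) in Th0 cells, a difference of -0.58 ± 0.09 (adjusted p = 4.43e-06), and the groups met only at their edges. Lower in Th2 cells were also *Eef1aknmt* (-0.52), *Eif2b3* (-0.50), *Eif1a* (-0.41), *Eif2d*, *Eif2b4*, *Eif4a1*, and *Eif1ad* (-0.28 to -0.22). With the mean of a gene's probes, *Eef1aknmt* was at -0.14 and *Eif4a1* at -0.12, and neither passed. Without the 2 arrays, 1 member was higher and 4 were lower, the 4 being *Eef1akmt1*, *Eef1e1*, *Eif2b3*, and *Eif2b4*. The count of 10 was 4 without Th2 replicate 1 and 4 without Th0 replicate 2.

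In Th1/2 compared to Th0 cells, 6 members were higher and 4 were lower, against 9.98% and 12.6% of all genes. *Eif4enif1* had levels of 11.83 to 12.41 (median 12.16) in Th1/2 cells and 11.32 to 11.78 (median 11.66) in Th0 cells, without overlap, and a difference of 0.52 ± 0.08 (limma, adjusted p = 4.40e-06). The difference in *Eef2* (1.13 ± 0.42, adjusted p = 0.0472) was 2.00 in experiment 2 and 0.26 in experiment 1, and without the 2 arrays it was 0.39 (adjusted p = 0.261). For *Eif4b*, 0.69 ± 0.26 (adjusted p = 0.0498) likewise became 0.36 (adjusted p = 0.324). *Eef1g*, *Eif3f*, and *Eef2kmt* were higher in Th1/2 cells by 0.29, 0.25, and 0.24 and passed with and without these arrays, but with the mean of its probes *Eef2kmt* was at 0.0827 and did not. *Eef1akmt1* (-0.81 ± 0.17) and *Eef1e1* (-0.32 ± 0.09) were lower in Th1/2 cells with and without the 2 arrays, whereas *Eif4a1* (-0.29) and *Eif4h* (-0.22) did not pass without them. Without the 2 arrays, 6 members were higher and 2 were lower, against 9.61% and 9.92% of all genes. *Eif2a* and *Eif4e3*, which were not called with all arrays, were among these 6. The count of 10 with all arrays was 6 without either Th2 replicate, Th1/2 replicate 1, or Th0 replicate 2.

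Between Th1 and Th0 cells 1 member was higher and none was lower, against 3.17% and 3.08% of all genes, and 3 members were lower at an unadjusted p under 0.05. The one member was *Eif4e3*, with levels of 12.79 to 13.67 (median 13.22) in Th1 cells and 12.10 to 12.86 (median 12.47) in Th0 cells, and a difference of 0.76 ± 0.13 (0.74 and 0.78 in experiments 1 and 2; limma, adjusted p = 3.46e-05). In Th1 compared to Th2 cells, 5 members were higher and 2 were lower, against 10.3% and 9.72% of all genes. *Eif4e3* differed by 0.69 ± 0.13 with no overlap, since Th2 cells had levels of 12.18 to 12.77 (median 12.58). *Eef1akmt1* (0.49), *Eef1e1* (0.47), *Eif2b3* (0.38), and *Eif2d* (0.27) were also higher in Th1 cells, and *Eif4enif1* (-0.44) and *Eif1b* (-0.25) were lower. These 7 also passed without the 2 arrays, neither of which is from Th1 or Th2 cells. The count was 2 without Th2 replicate 1 (*Eif4e3* and *Eef1e1*) and 4 without either Th1 replicate.

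**Figure D5:**
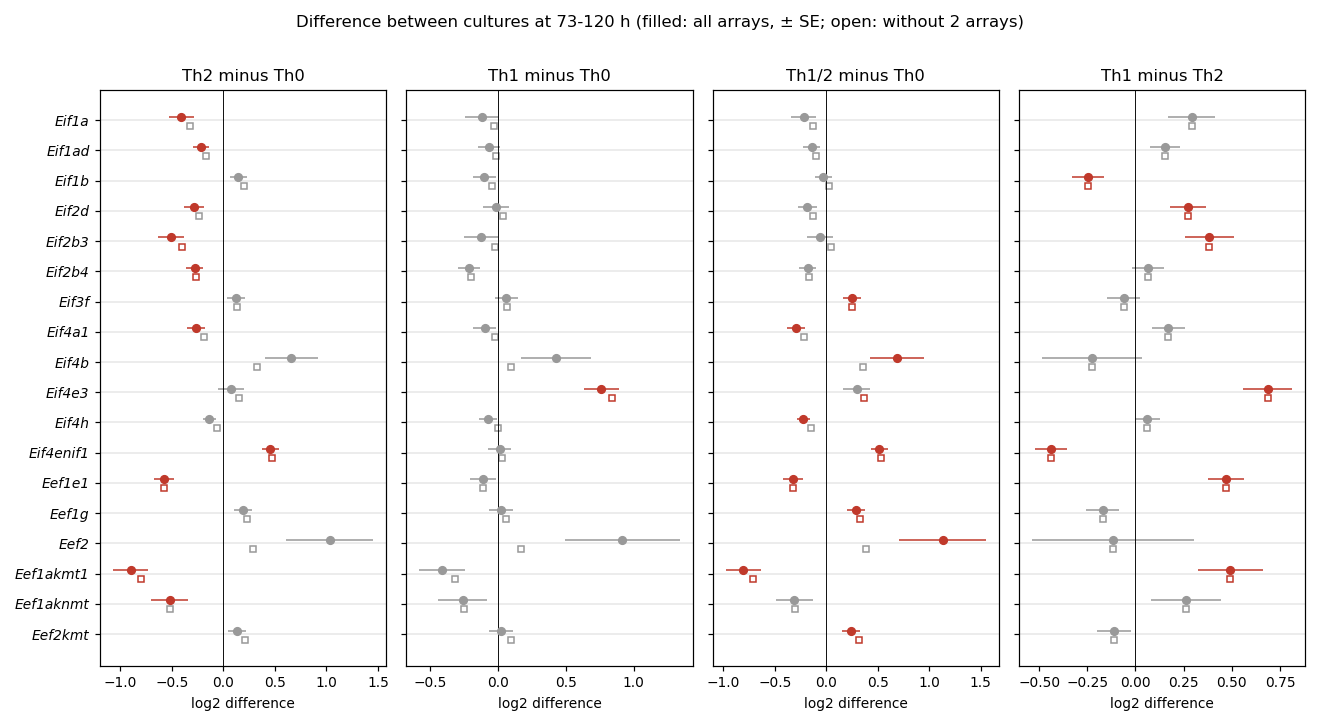
Log2 difference at 73–120 h (horizontal axis) between 2 cultures in each panel for the 18 members that differed in at least 1 of the 4 comparisons. Filled points with bars give the difference ± SE on all arrays and open squares the value without the 2 arrays that stood apart, in red where adjusted p was under 0.05; *Eef2* and *Eif4b* in Th1/2 minus Th0 lose their call without these arrays, and *Eif4enif1* keeps it.

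*Eif4enif1* was the one member called between cultures at 3–12 h. At 24–35 h its levels were 12.66 to 12.88 (median 12.81) in Th1/2 cells and 11.90 to 12.13 (median 12.00) in Th0 cells, a difference of 0.78 ± 0.10 without overlap (limma, adjusted p = 4.19e-07). It was also higher in Th2 than in Th0 cells in this window, by 0.55 ± 0.10. It was higher in Th1/2 than in Th1 cells by 0.50 at 3–12 h, at 24–35 h, and at 73–120 h, where 1.14%, 1.19%, and 7.01% of all genes were higher. At 3–12 h Th1/2 cells exceeded Th0 cells by 0.40 ± 0.08 (adjusted p = 0.00154), with overlapping ranges over these times.

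Th1/2 cells differed from Th1 cells at 73–120 h in 3 members, *Eif4enif1*, *Eef1g* (0.27), and *Eif4e3* (-0.47), and from Th2 cells in 1, *Eif2b3* (0.45 ± 0.13; limma, adjusted p = 0.0273). For the comparison with Th1 cells, 7.01% of all genes were higher and 7.21% lower, and for that with Th2 cells 1.72% and 2.32%.

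The change from 24–35 h to 73–120 h was compared between cultures by an interaction test, and 5 members passed in at least 1 of the 4 comparisons. These calls depended on Th0 replicate 1, without which no member passed and 12 members reached an unadjusted p under 0.05 (limma), and the count was 3 with trend and robust moderation and 2 with a window of 48–120 h. *Eif4e3* rose more in Th2 than in Th0 cells, by 0.85 ± 0.20 (limma, adjusted p = 0.00289), more in Th1 than in Th0 cells, by 0.86 (adjusted p = 0.0114), and more in Th1/2 than in Th0 cells, by 0.93 (adjusted p = 0.0013). Without Th0 replicate 1 these were 0.58, 0.60, and 0.66, with adjusted p of 0.181, 0.499, and 0.135. In Th2 cells this followed lower levels at 24–35 h, 8.44 to 9.26 (median 8.74), against 9.30 to 9.96 (median 9.51) in Th0 cells. With all arrays, *Eef1e1*, *Eif2s3x*, and *Eif2b4* fell more in Th2 than in Th0 cells, and the change of *Eef2kmt* was higher in Th2 cells. Without the 2 arrays that stood apart, *Eif2b4* (adjusted p = 0.0627) and *Eif2s3x* (adjusted p = 0.0966) no longer passed, and with trend and robust moderation *Eef1e1* was the one of these 4 that did. Of all genes, 5.53% changed more upward and 7.22% more downward in Th2 than in Th0 cells, 0.724% and 0.651% in Th1 than in Th0, and 4.41% and 4.38% in Th1/2 than in Th0. No member passed between Th1 and Th2 cells, where 3.60% and 3.68% of all genes did and 1 member reached an unadjusted p under 0.05 in limma, with 0 called under the mean-variance trend and 1 under the random replicate block.

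Other genes of the translation pathway came from a list of 46, of which 45 were tested. At 24–35 h, 19 of the 45 were higher and 11 were lower, against 27.0% and 24.8% of all genes. The same shares of all genes are the reference for the smaller lists that follow. All 6 genes of termination and recycling were higher, among them *Etf1*, the release factor, by 1.24 ± 0.18, and *Gspt1*, its GTPase partner, by 1.24 ± 0.10. Of 8 mitochondrial translation factors, 6 were higher and 1 was lower, with *Gfm1*, the mitochondrial elongation factor G, at 1.80 ± 0.14. Of 14 tested mTOR pathway genes, 3 were higher and 5 were lower. *Larp1*, which binds oligopyrimidine mRNAs, differed by 1.72 ± 0.28, and *Pdcd4*, an inhibitor of the eIF4A helicase, fell by 2.01 (SE 0.15). Of the 9 genes of the eIF2 kinases and the stress response, 1 was higher (*Atf4*, 0.51 ± 0.19) and 3 were lower (*Eif2ak3*, *Ppp1r15a*, and *Impact*). From 24–35 h to 73–120 h, 25 of the 45 fell and 8 rose, against 32.5% and 28.8% of all genes.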

How the data were processed

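The deposited values are normalized intensities of Illumina bead arrays, which the authors background-corrected and quantile-normalized, with software not given in the sources used here. Values were on a linear scale (array medians of 107 to 111), so log2 was taken with no further normalization. The number of arrays, 2 per condition, limits the precision. Of 45135 probes, 34773 had 1 symbol in the platform annotation, and 23115 of these exceeded a log2 level of 6.77, the median of all values, in the mean of at least 1 condition. limma 3.58.1 (R 4.3.3) fitted 1 mean per condition over 74 arrays, with moderated variances and Benjamini-Hochberg adjustment over 13817 genes at 0.05. The fit was run on simulated data with independent noise on each array. That setting cannot show the error rate for arrays that deviate together. Window means weighted conditions equally.

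Members and lists were chosen with earlier results of these data known. The text names the 8 largest rises and falls against 0 h, up to 5 late differences per comparison and direction, *Eef2*, *Eif3c*, paralogue sets, and the brightest member of each role; further members complete their groups and were named after their values were seen, as were the related genes given as examples.

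Alternatives were normexp with quantile normalization, median centring, no filter, mean of probes, eBayes with trend and robust, replicate blocks, a 1.5-fold limit, a 48–120 h window, leaving out the 2 arrays, and leaving out each replicate.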

Additional observations from a re-analysis of the deposited data

Results flagged for a closer look

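A total of 8 changes from 24–35 h to 73–120 h differed between cultures by the interaction test in limma. For Th2 minus Th0 cells they were -0.48 for *Eef1e1*, 0.43 for *Eef2kmt*, -0.38 for *Eif2b4*, -0.46 for *Eif2s3x*, and 0.85 for *Eif4e3* on the log2 scale. For Th1 minus Th0 cells the difference was 0.86 for *Eif4e3*. For Th1/2 minus Th0 cells it was -0.44 for *Eif2b4* and 0.93 for *Eif4e3*. Each had the same sign in both experiments, but none passed without Th0 replicate 1, where 12 members reached an unadjusted p under 0.05. Without the 2 arrays, *Eif2b4* (adjusted p = 0.0627) and *Eif2s3x* (adjusted p = 0.0966) no longer passed between Th2 and Th0 cells.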

How the results depend on the processing

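The counts of members that were kinetic, higher at 24–35 h, lower at 73–120 h than at 24–35 h, or different at 3 h stayed within 1.5 times of the reported values under every alternative run. Median centring of the arrays gave 9 members lower at 24–35 h, and shifted the median of all genes from 0.04 to -0.03. The median later change was -0.25 with no filter and -0.39 with the mean of probes. With trend and robust moderation, 3 members differed between cultures in their change, and 2 did with the window of 48–120 h, which also gave 5 members higher late. Without the 2 arrays, 5 members differed late between Th2 and Th0 cells.

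Leaving out 1 replicate of 1 culture or of naive cells at a time gave 25 to 29 kinetic members, 30 to 32 higher and 2 to 6 lower at 24–35 h, 2 to 3 higher and 33 to 39 lower late, and 23 to 28 different at 3 h. The 2 lower at 24–35 h were left without naive replicate 2. Late differences ranged over 4 to 15 for Th2 minus Th0 (4 without Th2 replicate 1 or Th0 replicate 2), 1 to 3 for Th1 minus Th0 (3 without Th0 replicate 1), 6 to 11 for Th1/2 minus Th0 (6 without either Th2 replicate, Th1/2 replicate 1, or Th0 replicate 2), and 2 to 7 for Th1 minus Th2 (2 without Th2 replicate 1, 4 without either Th1 replicate). The change between cultures gave 0 to 7, with 3 without Th2 replicate 2 or Th0 replicate 2, and the 0 without Th0 replicate 1, where 12 members reached an unadjusted p under 0.05 in limma. The median changes were 0.53 to 0.65 and -0.34 to -0.30. Of 37 members called at 24–35 h, 2 reversed with the mean of probes, *Eif4g2* (0.36) and *Eif5* (0.030), whose probes disagree. No call was reversed under another alternative.

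Cultures of a time point share replicate numbers, and the paper describes 2 independent experiments and shows results by replicate. No source used here ties a number to a shared day, and the main fit did not use the number. Deviations of same-numbered cultures from their condition means correlated with a median of 0.54 over 54 pairs (0.0108 to 0.72). All were positive, so each culture correlated better with its own number than with the other. The sample labels themselves do not name a shared experiment. With a fixed replicate block, 6 members were lower at 24–35 h, 40 were lower late, 29 differed at 3 h, 12 differed late between Th2 and Th0 cells, and 8 differed between cultures in their change, and none of the single calls ended. The random replicate block gave 14 for this change and 18, 3, 20, and 11 late differences for Th2 minus Th0, Th1 minus Th0, Th1/2 minus Th0, and Th1 minus Th2, and left 32 members lower late. It ended 9 single calls, the change at 24–35 h of *Eef2k* and the later changes of *Eef2* (adjusted p = 0.238), *Eef2k*, *Eif1ax*, *Eif2s3x-ps1*, *Eif3m*, *Eif4b*, *Eif4h*, and *Eif5b*.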
